A study of Rattus norvegicus with 12 samples.

Results

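Txnip, an arrestin-like protein that binds and inhibits thioredoxin, was examined together with 8 antioxidant enzymes in rat myocardium: Txnrd1, Hmox1, Nqo1, Cat, Sod1, Sod2, Gpx1 and Gpx3. They were chosen by name, and every probe set whose single gene symbol in the platform annotation was one of these names was used. That gave 10 probe sets for 9 genes, of 31042 probe sets on the array without controls and of 14217 genes with a probe set of 1 symbol. All 10 probe sets passed the filter on low values, as did 18625 probe sets in all. Of those, 14310 had 1 symbol, and these stand for 10623 named genes. Txnrd1 had 2 probe sets and is given by the brighter one unless stated.

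The hearts came from male Sprague-Dawley rats that received 1 injection at 8 weeks of age. Diabetic rats had streptozotocin at 65 mg/kg, a drug toxic to pancreatic beta cells, and non-diabetic rats had the citrate buffer in which it was dissolved. Blood sugar was left untreated, and 10 weeks later the rats underwent ligation of the left anterior descending coronary artery or a sham operation. Left ventricular free wall remote from the infarct was taken at 1, 7, 14, 28 and 56 days after ligation, at labelled ages of 18, 19, 20, 22 and 26 weeks, and from sham hearts at 18 weeks. The non-diabetic day 56 array is labelled 22 weeks although its protocol gives the same 56 days. The time between the sham operation and sampling could not be found in the labels, and the tissue label of the sham arrays speaks of an infarct. Each array held RNA pooled in equal parts from 3 rats, so each condition had 1 sample at each of 6 time points and 12 arrays in all. Differences between rats within a pool cannot be seen, and no pool has a replicate of its own condition and time point. A p-value for diabetes here measures how the difference between paired pools varied over the 6 time points. That spread holds both noise and any true change of the difference with time, and the comparisons of each day with sham use it too.

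Thioredoxin and glutathione are the main thiol systems that return oxidised proteins and peroxides to their reduced state. Superoxide dismutases turn superoxide into hydrogen peroxide, which catalase, glutathione peroxidases and peroxiredoxins then remove. Txnip transcription is induced by glucose through the factors MondoA and ChREBP at E-box-containing elements, and Hmox1, Nqo1 and Txnrd1 are textbook targets of NRF2, which binds antioxidant response elements.

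Promoter windows from 250 bases before to 50 after the RefSeq start site (rat build GRCr8) were matched for 7 of the 9 genes, Txnip and Hmox1 being the other two. They were searched on both strands for 4 motifs: the E-box CACGTG, the antioxidant response element core TGACNNNGC, the forkhead motif GTAAACA and a direct repeat of AGGTCA with 1 base between. Over 33469 windows these occurred in 6.42%, 12.1%, 3.78% and 0.0538%, in that order. One of the 2 Txnrd1 windows and the Sod2 window held the antioxidant response element core, and the Gpx1 window held an E-box just after its start site. None of the 4 motifs was found in the windows of Nqo1, Cat, Sod1 and Gpx3. Arrdc4, the closest relative of Txnip, held an E-box and an antioxidant response element core. Shown are the Txnrd1 and Sod2 matches, as the antioxidant response element matches among the 9 genes, and the Arrdc4 E-box, as the gene whose values ran most like those of Txnip. Each is written on the gene's strand with the motif in capitals, and the capitals of Txnrd1 and Sod2 read as the core on the opposite strand.
Txnrd1 (chr7:22755934-22756022, minus strand): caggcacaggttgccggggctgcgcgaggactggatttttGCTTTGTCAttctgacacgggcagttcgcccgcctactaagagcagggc
Sod2 (chr1:50050169-50050243, minus strand): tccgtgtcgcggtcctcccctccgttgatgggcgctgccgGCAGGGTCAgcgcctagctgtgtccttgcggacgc
Arrdc4 (chr1:131793557-131793642, minus strand): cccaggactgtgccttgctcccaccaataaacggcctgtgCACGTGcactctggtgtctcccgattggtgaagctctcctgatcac
A match is a run of letters and not a bound site.

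The arrays had similar overall brightness, with median intensities between 28.8 and 34.6 in the authors' arbitrary units. The signal of beta-actin probes at the 3′ end exceeded that at the 5′ end by 0.975 to 0.994 on the log2 scale on the 4 arrays of days 1 and 7, and by 0.365 to 0.586 on the 8 others. That ratio rises as RNA is broken or less fully copied, and here its highest values were those of days 1 and 7 in both conditions. On day 28 it was 0.379 on the diabetic and 0.586 on the non-diabetic array. The 7 cardiomyocyte markers on the array, such as Myh6 and Tnnt2, had summed intensities of 33305 to 40872 on diabetic arrays and 39943 to 42823 on non-diabetic arrays. Because tissue was measured in bulk, fewer cells of a type and less RNA per cell cannot be told apart.

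Txnip was the member that differed between diabetic and non-diabetic hearts. It was higher in the diabetic pool at all 6 time points, by 2.31-fold in the model. None of the 8 enzymes passed the test for diabetes, and catalase, which clears hydrogen peroxide in peroxisomes, came nearest. After ligation Hmox1 was higher and Gpx3 was lower on day 1, and each moved in the same direction in both conditions.

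Txnip lies at chr2:186781933-186785736 in GRCr8. On the diabetic arrays its intensity was 3008 in sham hearts and then 2156, 2714, 2873, 3773 and 4222 on days 1, 7, 14, 28 and 56. On the non-diabetic arrays it was 1104 in sham hearts and then 1314, 1033, 787.3, 1811 and 2348 on the same days. Within each time point the diabetic pool was the higher one, and over all time points the groups overlapped by 1 pair of arrays: the lowest diabetic value, on day 1, was under the highest non-diabetic value, on day 56. The medians were 2940 in diabetic and 1209 in non-diabetic hearts.

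The difference was 1.21 ± 0.15 (log2 of the intensity plus 16, SE), with an adjusted p of 0.00892 by limma, and Txnip ranked 11 of 18625 probe sets by p. Differences within the 6 pairs ran between 0.71 on day 1 and 1.85 on day 14, and that in sham hearts was 1.43. An exact two-sided test that changes the signs of the 6 pair differences gave p = 0.03125, the smallest it can give. Any probe set with 6 pair differences of like sign gets this value, and adjusted over the 10 probe sets of the members it was 0.312. By limma 70 probe sets (0.376%) passed for diabetes, 28 of them higher and 42 lower, and 1 of the 9 genes was among them. Diabetic arrays were above non-diabetic ones in all 6 pairs for 450 probe sets (2.42%), and of the 9 genes only Txnip was. Without the day 56 pair, whose ages differ in the labels, the estimate was 1.28 ± 0.17 (adjusted p = 0.0554), a larger difference that missed the threshold in a fit where 6 probe sets passed in all. The 4 arrays of days 1 and 7 alone gave 1.04 ± 0.23 (adjusted p = 0.895). Markers of 4 other tissues or cells also differed in range with diabetes. Summed over 4 atrial markers, intensity was 6530 to 8617 in diabetic and 2858 to 8194 in non-diabetic hearts. Endothelial, erythroid and lymphocyte markers ran lower with diabetes. The 6 endothelial markers summed to 2228 to 2821 in diabetic and 2655 to 3502 in non-diabetic hearts. The 5 erythroid markers summed to 2297 to 6152 in diabetic and 4454 to 6682 in non-diabetic hearts, and the 5 lymphocyte markers to 139.0 to 277.4 in diabetic and 187.9 to 341.6 in non-diabetic hearts. All these ranges overlapped, and no gene of the 4 lists passed by limma. Among markers past the filter, an unadjusted p under 0.05 was reached by 2 of 3 atrial and 3 of 6 endothelial ones. The same held for 2 of 4 erythroid and 2 of 4 lymphocyte markers, beside 1182 of 10623 genes in all. The part of these tissues or cells in the Txnip difference was not tested. The plot of intensity on each pooled array shows the gap at every time point for Txnip and its absence or change of sign for the other genes.

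**Figure D1:**
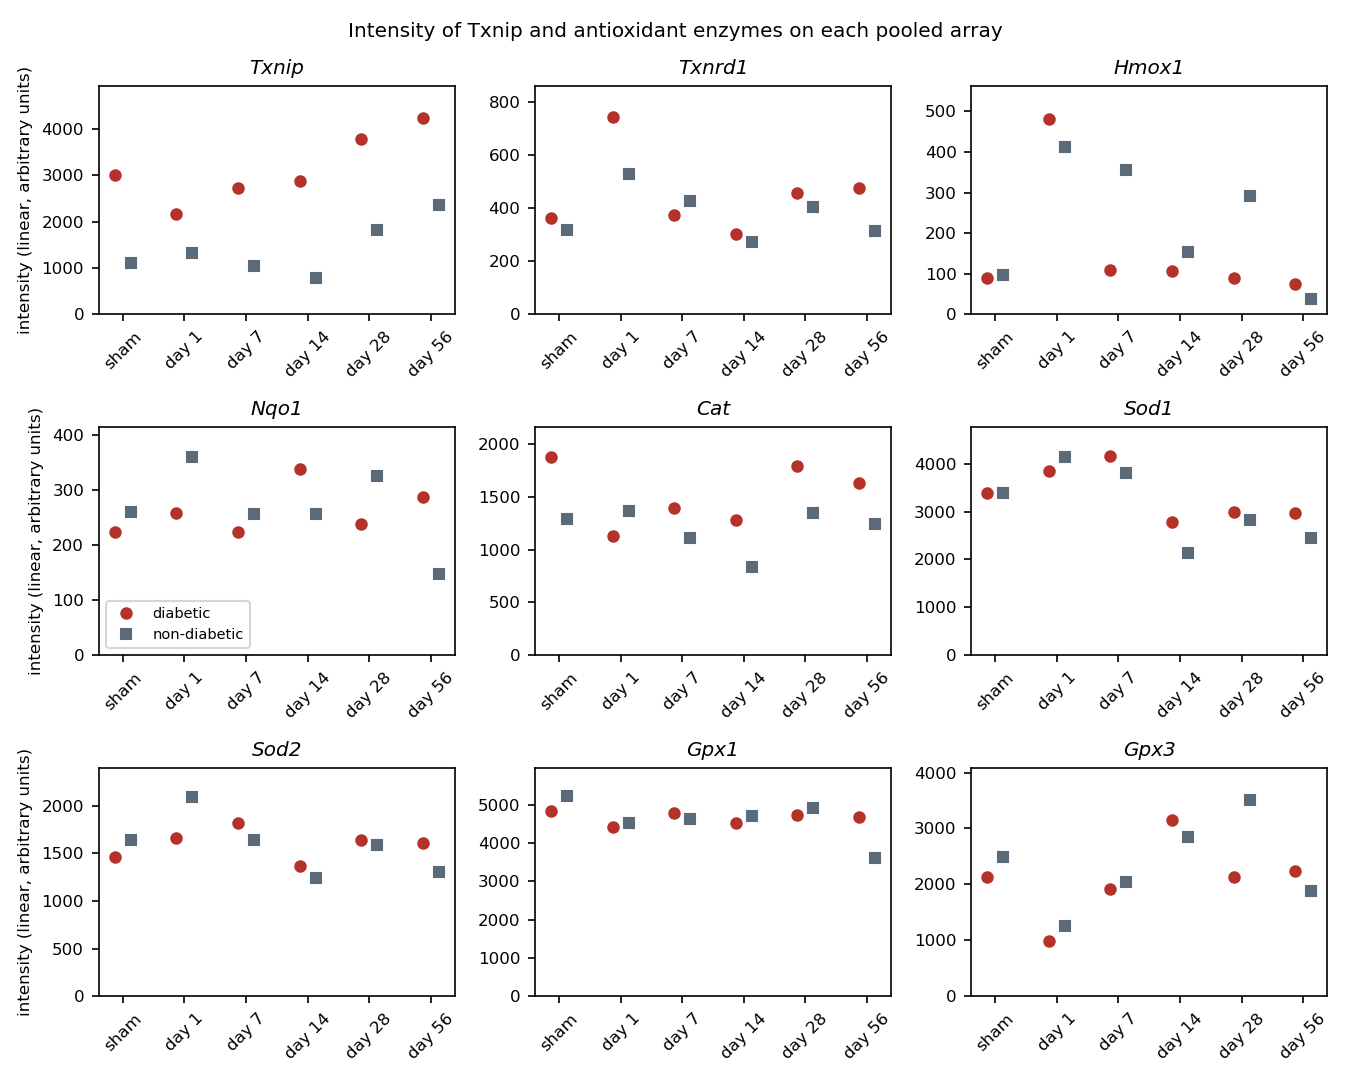
Intensity (linear, arbitrary units, axis from 0) of the 9 genes on each of the 12 pooled arrays, with diabetic pools as red circles and non-diabetic pools as grey squares at sham and days 1, 7, 14, 28 and 56. Txnip is higher in the diabetic pool at all 6 time points, Hmox1 is highest on day 1 in both conditions, and Gpx3 is lowest on day 1 in both.

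Txnrd1, the cytosolic reductase that keeps thioredoxin active, had a lowest, median and highest intensity of 301.3, 416.9 and 744.8 on diabetic arrays and of 271.1, 361.6 and 527.3 on non-diabetic arrays. The groups overlapped widely. The diabetic pool was higher in 5 of 6 pairs, all but day 7, and the difference was 0.23 ± 0.15 (adjusted p = 0.606, limma). Its other probe set gave 0.42 ± 0.19 (adjusted p = 0.478), and the 2 probe sets tracked each other with r = 0.943 over the 12 arrays.

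Hmox1, the inducible enzyme that breaks down haem, was the member with the widest range. It had a lowest, median and highest intensity of 75.7, 98.2 and 480.0 on diabetic arrays and of 37.8, 222.8 and 413.1 on non-diabetic arrays. On days 7 and 28 the diabetic pools had 110.2 and 89.2, against 355.8 and 292.4 in the non-diabetic pools. On day 56 the order was the other way, at 75.7 in the diabetic and 37.8 in the non-diabetic pool. The pair differences therefore ran between -1.56 and 0.77 with an SD of 0.948, and the difference over all pairs, -0.45 ± 0.29, did not pass (adjusted p = 0.615, limma). Leaving out day 7 or day 28 gave -0.23, and leaving out day 56 gave -0.69. Nqo1, a quinone reductase, had medians of 248.3 in diabetic and 259.2 in non-diabetic hearts and a difference of -0.00073 ± 0.19 (adjusted p = 0.999). Its 2 pairs with a higher diabetic pool were those of days 14 and 56.

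Catalase had a lowest, median and highest intensity of 1130, 1514 and 1876 on diabetic arrays and of 835.8, 1266 and 1365 on non-diabetic arrays. The groups overlapped, and the diabetic pool was higher in every pair but that of day 1. The difference was 0.33 ± 0.14, which reached an unadjusted p of 0.0334 but an adjusted p of 0.424 by limma. The exact sign-change test gave p = 0.0625, or 0.312 when adjusted over the 10 probe sets of the members.

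None of the remaining 4 enzymes passed for diabetes. The differences of Sod2 and Gpx1 were smaller than their errors, and those of Sod1 and Gpx3 were somewhat larger than theirs. Sod1, the copper-zinc dismutase of the cytosol, had medians of 3190.0 in diabetic and 3108 in non-diabetic hearts and a difference of 0.13 ± 0.10 (adjusted p = 0.694, limma). Sod2, the manganese dismutase of mitochondria, had medians of 1628 in diabetic and 1617 in non-diabetic hearts and a difference of 0.022 ± 0.12 (adjusted p = 0.966). Neither dismutase kept one direction over the 6 pairs.

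Gpx1, the abundant intracellular glutathione peroxidase, was the steadiest member in diabetic hearts, with a lowest and highest intensity of 4416 and 4845 there and of 3617 and 5242 in non-diabetic hearts. Its difference was 0.028 ± 0.093 (adjusted p = 0.943, limma). Gpx3, the secreted glutathione peroxidase, had medians of 2129 in diabetic and 2272 in non-diabetic hearts and a difference of -0.16 ± 0.14 (adjusted p = 0.709). That value became -0.051 when day 28 was left out and -0.25 when day 56 was. A p that misses the threshold does not show that the groups were alike, and the errors given bound what 6 pairs could resolve. The plot of pair differences shows the spread behind each of these estimates.

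**Figure D2:**
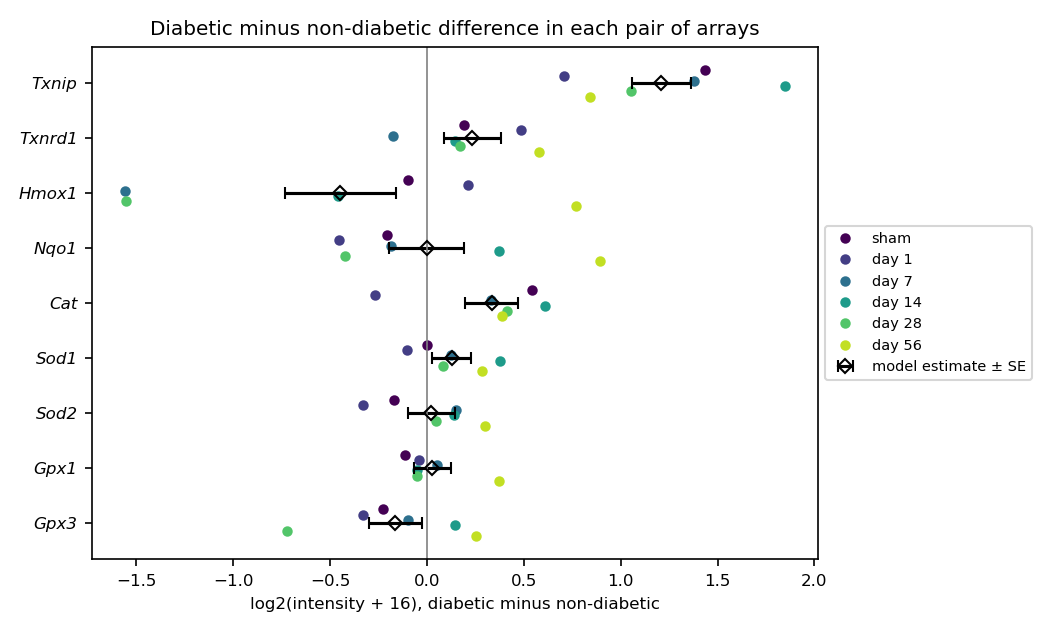
Diabetic minus non-diabetic difference in log2 of the intensity plus 16 for the 9 genes, with 1 coloured point for each of the 6 time points and an open diamond with a bar for the model estimate ± SE. The 6 points of Txnip lie between 0.71 and 1.85, while those of Hmox1 lie between -1.56 and 0.77.

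Against sham, Hmox1 was higher and Gpx3 lower on day 1 after ligation in the remote myocardium. The time between sham operation and sampling is not known, so ligation and recent surgery cannot be told apart here. Hmox1 had 480.0 in the diabetic and 413.1 in the non-diabetic pool on day 1, against 89.4 in the diabetic and 96.7 in the non-diabetic sham pool. Both day 1 arrays were above both sham arrays, and the share of all probe sets for which this held was not counted. The change was 2.08 ± 0.50, or 4.23-fold (adjusted p = 0.0319, limma), and within each condition it was 2.23 in diabetic and 1.93 in non-diabetic hearts.

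Gpx3 had 991.9 in the diabetic and 1252 in the non-diabetic pool on day 1, against 2133 in the diabetic and 2495 in the non-diabetic sham pool. Both day 1 arrays were below both sham arrays and were the lowest of all 12, and the share of all probe sets with such an order was not counted. The change was -1.04 ± 0.24, or 2.05-fold lower (adjusted p = 0.0273, limma), and within each condition it was -1.09 in diabetic and -0.99 in non-diabetic hearts. These were 2 of 9 genes called, where 7.47% of all probe sets were (783 higher, 609 lower). Both calls held in the 7 alternatives tested, with Hmox1 between 1.70 and 2.25 and Gpx3 between -1.09 and -1.01.

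Txnrd1 followed Hmox1 in direction on day 1 without passing. It had 744.8 in the diabetic and 527.3 in the non-diabetic pool on day 1, against 364.6 in the diabetic and 317.6 in the non-diabetic sham pool, and each day 1 value was the highest of its condition. The change was 0.85 ± 0.25 (adjusted p = 0.0653, limma). The other probe set gave 0.90 ± 0.34 (adjusted p = 0.122). Changes of the other 6 genes on day 1 lay between -0.32 for Cat and 0.31 for Nqo1, and none passed.

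Markers of other cells also stood at other levels on that day. Summed over 6 neutrophil markers, intensity was 883.8 to 2100 on the day 1 arrays and 221.0 to 338.0 on the sham arrays. Of the 4 markers past the filter 3 were above 0 on day 1, and 2 were called higher, S100a8 and Csf3r. The sum of 9 macrophage markers was 4869 to 6034 on day 1 and 2796 to 3005 in sham hearts. By gene they were mixed, with 5 of 8 tested above 0, a range of -0.63 to 1.27, and 0 called. Adipocyte markers summed to 2754 to 2960 on day 1 and to 3794 to 5694 in sham hearts, and erythroid markers to 3965 to 4454 on day 1 and to 5871 to 6682 in sham hearts. The sums of 6 endothelial markers were lower too, at 2228 to 2747 on day 1 and 2821 to 3343 in sham hearts. Those of 6 fibroblast markers were 5335 to 5354 on day 1 and 5797 to 7628 in sham hearts. By gene, 2 of 6 endothelial markers and 1 of 6 fibroblast markers were above 0, the last at 1.93. Sums follow the brightest markers and include some under the filter: of 6 adipocyte markers summed, 2 were past it. The beta-actin ratio was also higher on both day 1 arrays than on both sham arrays. The part of these cells and of RNA quality in the day 1 changes of Hmox1 and Gpx3 was not tested.

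No member passed on a later day. On day 7, when 7.65% of probe sets were called, Hmox1 stood at 0.99 ± 0.50 (adjusted p = 0.24, limma), with 0.26 within diabetic and 1.72 within non-diabetic hearts. The median of all probe sets was itself shifted by 0.151 on day 7 and by -0.116 on day 56. On days 14, 28 and 56 limma called 0 probe sets (0%), with 2172, 675 and 3062 at an unadjusted p under 0.05 on those days. Members at that level were Sod1 (-0.47 ± 0.17) and Cat (-0.58 ± 0.24) on day 14, none on day 28 and Txnip (0.78 ± 0.26) on day 56. All 5 day comparisons share the same 2 sham arrays, so their values are not independent of each other. Sham hearts were sampled at 18 weeks only, while the hearts of day 7 and later were labelled older. Age and time after ligation cannot be told apart in these values or in slopes over the days. The plot of each day minus sham gives both conditions separately beside the model's estimate.

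**Figure D3:**
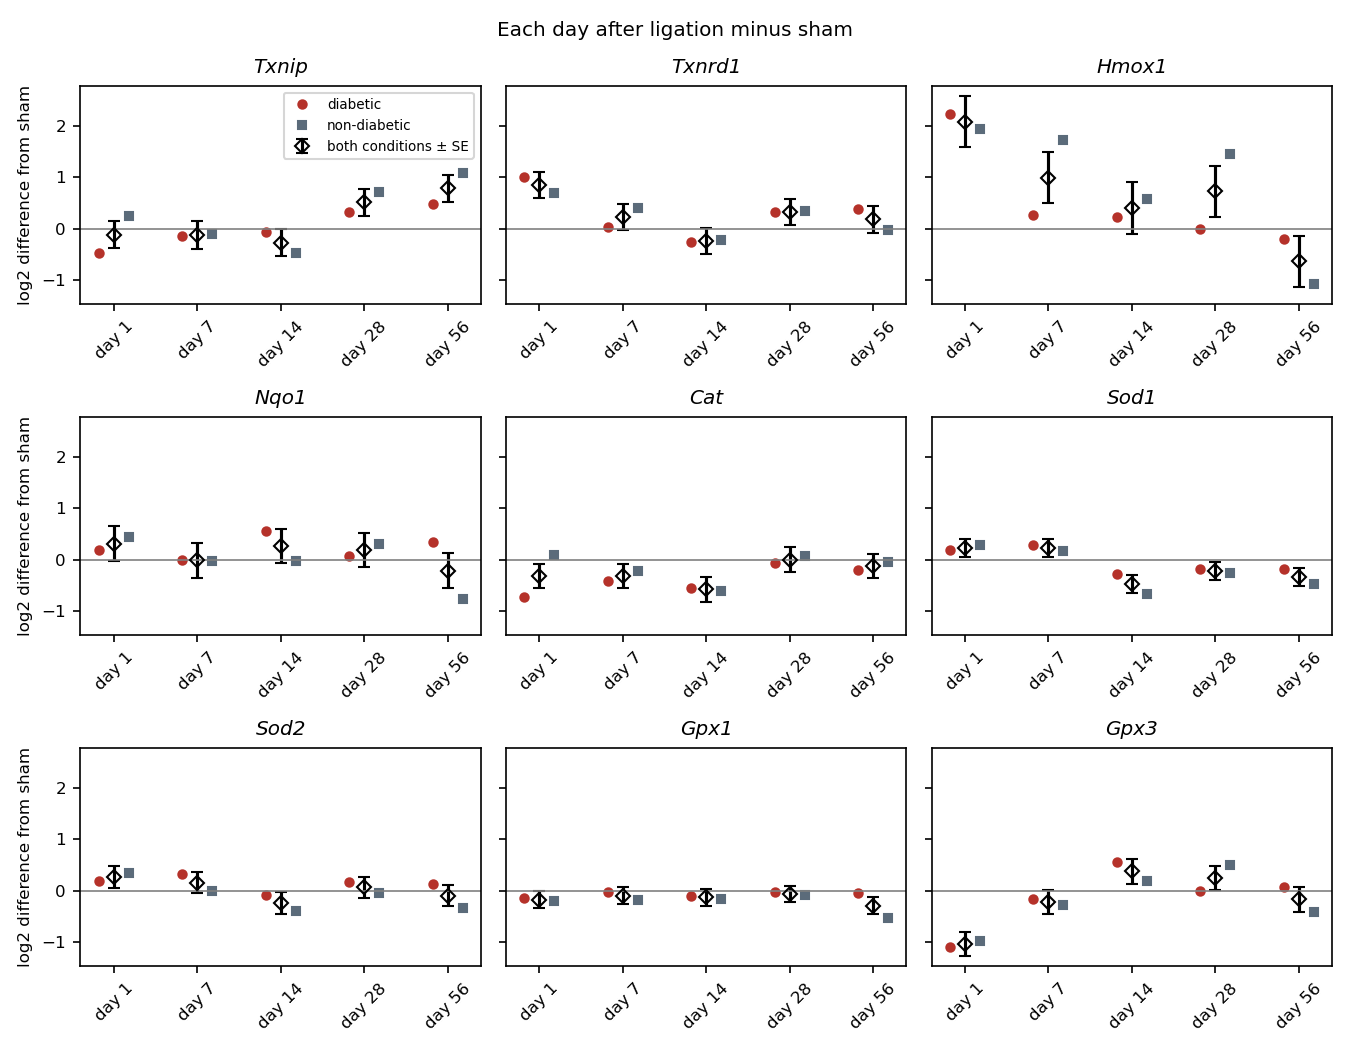
Difference from sham in log2 of the intensity plus 16 on days 1, 7, 14, 28 and 56, with diabetic pools (red circles, against the diabetic sham), non-diabetic pools (grey squares, against the non-diabetic sham) and the estimate over both conditions ± SE (open diamonds). Hmox1 stands at 2.08 and Gpx3 at -1.04 on day 1, and the Hmox1 points of the conditions part on days 7 and 28.

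Over the 5 days after ligation, without the sham arrays, Hmox1 fell with time. Its slope was -0.41 ± 0.09 on the log2 scale for each doubling of the day (adjusted p = 0.0226, limma, 10 arrays). Neutrophil markers had negative slopes in 4 of 4 genes tested, 2 of them called, with a median of -0.40, and 1 of 8 macrophage markers had a slope above 0, with none called. The beta-actin ratio was likewise higher on days 1 and 7 than on days 14 to 56. The part of these in the Hmox1 slope was not tested. Gpx3 had a slope of 0.19 ± 0.06 (adjusted p = 0.0599), Txnip of 0.15 ± 0.06 (adjusted p = 0.117) and Sod1 of -0.11 ± 0.04 (adjusted p = 0.082). Of the 9 genes 1 was called, beside 9.92% of all probe sets, 737 with a positive and 1111 with a negative slope. On days 14 to 56 alone, with 6 arrays, the Hmox1 slope was -0.52 ± 0.28 (adjusted p = 0.319), the Gpx3 slope turned to -0.27, and no probe set was called. With array medians set equal the Gpx3 slope passed, at 0.20 ± 0.06 (adjusted p = 0.0494).

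Whether the diabetic difference itself changed with ligation was tested by an interaction. By limma 0 probe sets (0%) passed for the interaction of diabetes with ligation, with 125 at an unadjusted p under 0.05, and 0 (0%) for its interaction with log2 of the day, with 838 at that level. None of the 9 genes reached an unadjusted p under 0.05 in either. The interaction with ligation was -0.27 ± 0.44 for Txnip and -0.42 ± 0.79 for Hmox1. With 1 sham pair the errors were large, and a difference in effect within them was not detectable here.

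Over the 12 arrays the members did not move as a block. Sod1 and Sod2 had the highest Pearson correlation among them, r = 0.86, followed by Txnip and Cat with r = 0.779. Txnrd1 and Gpx3 ran opposite to each other, with r = -0.751, as did Sod1 and Gpx3, with r = -0.615. Txnip and Hmox1 had r = -0.474. All these values describe the same 12 pools, which differ by both diabetes and time point.

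Of 10622 other genes Arrdc4 had the pattern most like Txnip, with r = 0.856 over the 12 arrays. It encodes another alpha-arrestin. Its intensity on diabetic arrays was 134.9 in sham hearts and then 74.0, 139.4, 145.1, 109.2 and 124.5 on days 1 to 56, and on non-diabetic arrays 41.0 and then 48.9, 74.9, 28.9, 95.6 and 68.9. As with Txnip, the diabetic pool was higher in 6 of 6 pairs and was lowest on day 1. Arrdc4 is named here for its likeness to Txnip on these same arrays, so such shared features follow in part from that choice. The difference of 0.90 ± 0.21 did not pass over all probe sets (adjusted p = 0.131, limma). Myh7, the slow myosin heavy chain, and Perp followed with r = 0.845 each, then Plekha5 with r = 0.842 and Epc1 with r = 0.833.

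At the other end stood Acy1 with r = -0.941, Apln, the peptide hormone apelin, with r = -0.936, and Scx, a transcription factor of tendon and fibroblasts, with r = -0.918. Aldh4a1, an enzyme of proline breakdown, had r = -0.917 and Sigirr r = -0.905. Of these, Aldh4a1 (-1.16), Scx (-1.48) and Apln (-0.98) were lower in diabetic hearts, with adjusted p of 0.00892, 0.0291 and 0.033 by limma. Over all 10623 genes 35 were called lower. These genes are named for running opposite to Txnip on the same arrays, so their lower diabetic values follow in part from that choice. Cat was most like Cd36, the fatty acid transporter, with r = 0.933, and then Hsdl2 and Pkp4 with r = 0.926 each, Alkbh5 with r = 0.92 and Mxi1 with r = 0.916. Farthest from Cat were Sesn2 (-0.909), Klhl30 (-0.905), Fam234a (-0.888), Col4a1 (-0.886) and Acy1 (-0.882). The plot of Txnip against Arrdc4 shows that diabetic and non-diabetic arrays form the ends of this relation.

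**Figure D4:**
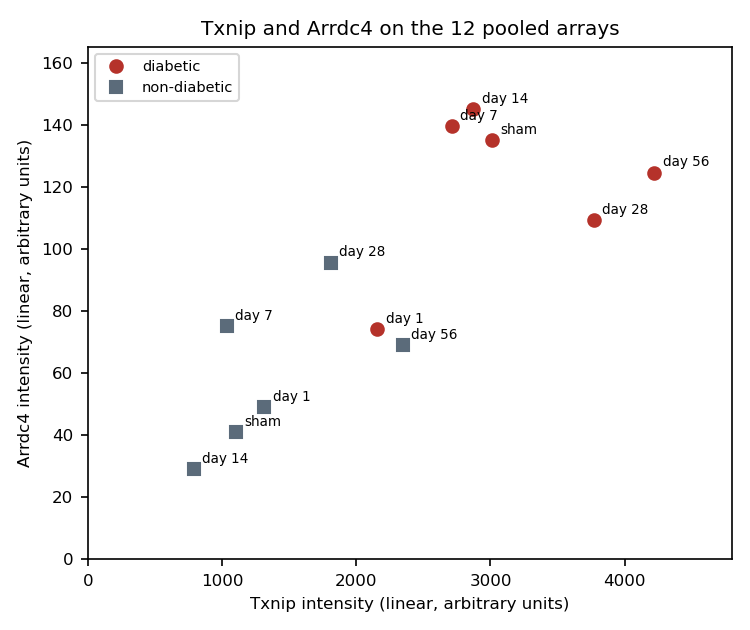
Intensity of Arrdc4 (vertical, linear, arbitrary units) against that of Txnip (horizontal, linear, arbitrary units) on the 12 pooled arrays, with diabetic pools as red circles and non-diabetic pools as grey squares, labelled by time point. Except for day 1, the diabetic pools lie above 100 for Arrdc4, and all non-diabetic pools lie below 100.

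Beyond Txnip, few neighbouring genes of the redox systems passed for diabetes, and few passed over all genes. Over all 10623 genes 15 were higher and 35 lower in diabetic hearts, with a median difference of -0.01. An unadjusted p under 0.05 was reached by 1182 of them. In the thioredoxin system 0 of 19 genes tested passed by limma (4 at an unadjusted p under 0.05), with a median of -0.04. Glrx, the cytosolic glutaredoxin, differed by 0.60 ± 0.23 (adjusted p = 0.395). Among genes of glutathione synthesis and use 0 of 25 passed (5 at that level), with a median of -0.03. Of the arrestin relatives and glucose-sensing regulators of Txnip 0 of 13 passed (3 at that level), with a median of -0.05, Arrdc4 and Klf10 (0.68 ± 0.20, adjusted p = 0.225) having the smallest p.

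Of 23 NRF2 regulators and targets, 1 passed and 5 had an unadjusted p under 0.05. In this list 16 were above 0, with a median of 0.11, beside 48.1% above 0 over all genes. Cbr1, a carbonyl reductase, had 907.7 in diabetic sham hearts and then 543.2, 887.2, 528.4, 958.6 and 1054 on days 1 to 56, against 227.4 and then 246.6, 319.0, 311.6, 279.4 and 234.9 in non-diabetic hearts. The groups did not overlap, and the share of all probe sets without overlap was not counted. Cbr1 is named because it passed for diabetes, so this lack of overlap follows in part from that choice. The difference was 1.499 ± 0.19 (adjusted p = 0.00892, limma), larger than that of Txnip, while the NRF2 targets Nqo1, Hmox1 and Txnrd1 did not pass.

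Genes of superoxide handling and oxidant production were below 0 more often than above, with 2 of 14 above 0 and a median of -0.26, beside 48.1% above 0 over all genes. None of the 14 passed by limma, and 2 had an unadjusted p under 0.05. Maob, a mitochondrial amine oxidase that makes hydrogen peroxide, stood lowest at -0.65 ± 0.14 (adjusted p = 0.093, limma), but was dim, with a highest intensity of 86.1. Nos3, the endothelial nitric oxide synthase, stood at -0.48 ± 0.19 (adjusted p = 0.40). The part of endothelial cells, whose markers are given above, in the Nos3 value was not tested. Peroxisomal genes had a median of 0.14 with 13 of 21 above 0 and 0 passing (5 at that level), led by Ech1 (0.63 ± 0.14, adjusted p = 0.125), an isomerase of fatty acid oxidation, and Pex11a (0.71 ± 0.17, adjusted p = 0.163), a peroxisome division factor.

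Day 1 after ligation moved more genes of the same lists, as it did over all genes, where 392 rose, 245 fell and the median change was 0.09. In the thioredoxin system Glrx rose by 1.61 ± 0.40 (adjusted p = 0.0373, limma), and the list's median was 0.09. Of the glutathione genes Mgst1 (1.17 ± 0.27, adjusted p = 0.0295) and Mgst2 (1.00 ± 0.26, adjusted p = 0.0444), membrane-bound transferases, rose, Gpx3 fell, and the median was -0.13. Akr1b8 (1.88 ± 0.35, adjusted p = 0.0107), an aldo-keto reductase, and Hmox1 were the 2 of 23 NRF2 genes that rose, with a median of 0.25. Sod3, the extracellular dismutase, fell by 1.44 on the log2 scale (SE 0.34, adjusted p = 0.0293), so that Gpx3 and Sod3, both secreted, were lower on day 1. On day 7 Maoa, the other amine oxidase, was lower at -1.48 (adjusted p = 0.0403).

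Over the days after ligation most of the slopes called in these lists were negative, as among all genes (254 positive and 698 negative). Of 19 thioredoxin genes 5 fell (Txn1, Prdx5, Glrx, Glrx3 and Msrb1). Of the glutathione genes Mgst1 and Mgst2 fell, and of the NRF2 genes Hmox1 and Akr1b8. Of the peroxisomal genes Pex6 had a positive and Prdx5 a negative slope. The plot of the redox lists shows each gene's change with diabetes and on day 1.

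**Figure D5:**
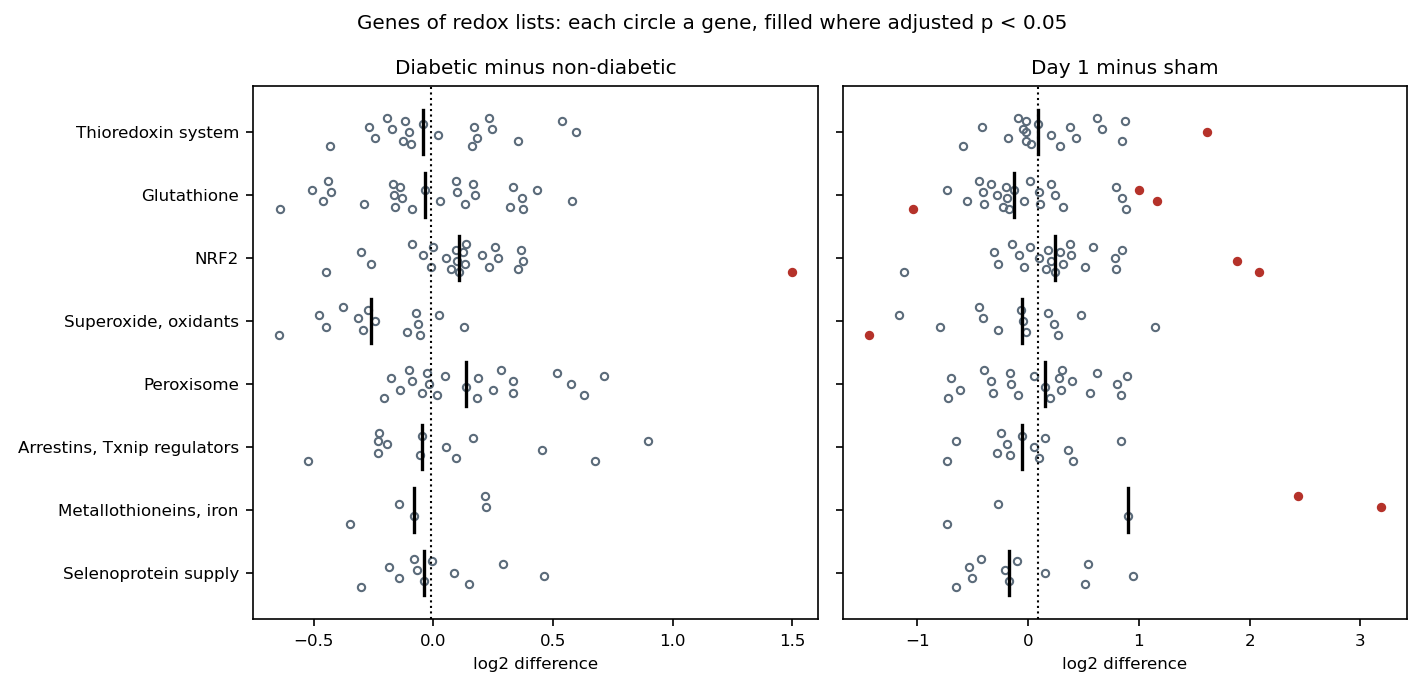
Log2 difference of each gene of 8 redox lists, as diabetic minus non-diabetic (left) and day 1 minus sham (right), with 1 circle for each gene past the filter, filled red where the adjusted p is under 0.05. Black bars are list medians and the dotted line is the median of all genes, -0.01 on the left and 0.09 on the right. In these lists, which leave out Txnip itself, Cbr1 is the only filled circle on the left.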

How the data were processed

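Biotin-labelled total RNA of 12 pools was hybridised to Affymetrix rat expression arrays. The authors deposited 1 linear intensity per probe set and array, and the submitters' processing notes name Affymetrix Expression Console and PLIER. How background and scaling between arrays were handled, and in which software version, is not given in the sources used. Precision rests on the number of arrays.

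From the table's 31099 probe sets, 57 controls were removed. The authors' deposited intensities were turned into log2 of the intensity plus 16, which understates changes where signal is dim. The filter kept probe sets whose mean was above the 40th percentile (5.2). A gene stands by its brightest probe set with 1 symbol.

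In R 4.3.3, limma 3.58.1 fitted time point and diabetes to the 12 arrays (5 residual degrees of freedom), with a variance trend. The slope was fitted to the 10 ligated arrays against log2 of the day, and 2 interactions were fitted. Benjamini-Hochberg adjustment ran over 18625 probe sets, with a threshold of 0.05. The exact test was over the 6 pairs. The procedure was tested on simulated data. The time point pairs the arrays and is in the model. Alternatives were offsets of 1 and 64, no filter, quantile or median scaling, no trend, and fewer arrays.

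Named are the 9 genes, from each list those passing and up to 4 with the smallest p for diabetes or for all 5 days averaged against sham, and the 5 genes most and least correlated with Txnip and Cat. The genes and lists were chosen with earlier results of these data known. Symbols come from the platform annotation, promoter sequences and loci from RefSeq (GRCr8).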

Additional observations from a re-analysis of the deposited data

How the results depend on the processing

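Txnip was higher in diabetic hearts in 15 of 15 alternatives, at 1.04 to 1.31 (1.08 to 1.31 with 1 pair left out), and passed limma's test in 12 of 14. It did not pass without the day 56 pair (1.28, adjusted p = 0.0554) nor on days 1 and 7 alone (1.04, adjusted p = 0.895), where fewer arrays were tested, and 0 members were called in both. Over alternatives that leave out 1 pair, 0 to 1 members and 6 to 92 probe sets were called for diabetes (70 with all arrays): 20 without sham, 42 without day 7, 21 without day 14 and 6 without day 56. On sham and days 14 to 56 it was 35, and on days 1 and 7 it was 2. Without a filter 2384 probe sets were called on day 1 and 2775 on day 7, and 10 on day 56, where an offset of 1 gave 2. Quantile scaling turned the split of calls on day 1 to 588 higher and 687 lower (783 and 609 without scaling) and on day 7 to 435 and 630 (870 and 554). Equal medians gave 692 and 797 on day 7 and 2 members called for the slope. An offset of 64 gave 889 and 501 on day 1. On days 14 to 56 alone the slope called 0 probe sets and 0 members. The cause was not tested. The reversals below were of values that passed in neither setting. For diabetes, Nqo1 (-0.00073) turned to 0.0018 (offset 1), 0.16 (sham and days 14 to 56) and -0.18 to 0.090 (1 pair left out). Sod2 turned to -0.092 (days 1 and 7) and -0.033 to 0.093 (1 pair left out), and Gpx1 to -0.0089 (quantile) and -0.041 to 0.056 (1 pair left out). On day 28, Cat turned to -0.000016 (offset 64), -0.0088 (quantile) and -0.041 (equal medians). Quantile scaling turned Gpx1 to 0.023 on day 7 and 0.021 on day 28, and Sod2 to 0.012 on day 56. On days 14 to 56 alone the slope turned to 0.21 for Txnrd1, 0.071 for Sod1, 0.074 for Sod2 and -0.27 for Gpx3. Of 567 values for single genes, 521 kept direction and call or moved by less than the spread. The time point, which pairs the arrays, was in every model for diabetes. With 1 pool per condition and time point, dim genes and single days are the least certain.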

Other observations

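Mt2A and Hamp, genes of metal handling, rose on day 1 after ligation. Mt2A, a metallothionein that binds zinc and copper, had 2809 in the diabetic and 1217 in the non-diabetic pool on day 1, against 220.3 in the diabetic and 161.2 in the non-diabetic sham pool. The change was 3.19 ± 0.45 (adjusted p = 0.00246, limma), and later values lay between 115.3 and 392.9. Hamp, the iron hormone hepcidin, had 1532 in the diabetic and 736.0 in the non-diabetic pool on day 1, against 120.1 in the diabetic and 275.5 in the non-diabetic sham pool, a change of 2.44 ± 0.45 (adjusted p = 0.0107). These were the 2 of 5 tested genes of the list that rose, its median being 0.91, and both fell over the following days. For diabetes 0 of the 5 passed by limma, and 0 had an unadjusted p under 0.05.

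Of 11 selenoproteins and factors that make them, 0 passed by limma for diabetes (2 at an unadjusted p under 0.05, median -0.04) or on day 1 (3 at that level, median -0.17), where Selenos stood at 0.95 ± 0.31 (adjusted p = 0.0824). Selenos, a protein of the endoplasmic reticulum, had a slope of -0.28 over the days (adjusted p = 0.0288).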
